A study of Mus musculus with 15 samples.

Results

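Transcripts of 10 macrophage marker genes were followed through the muscle transcriptomes of young and old wild-type and Mrps5 V338Y mutant mice. The 10 genes were taken by name from the 39179 genes listed for each mouse, and all 10 were listed in all 15 count files. Csf1r, Cd68, Adgre1 and Lyz2 mark macrophages in general, and Cd163, Mrc1 and Lyve1 mark macrophages that live in the tissue. Ccr2, Itgam and Cx3cr1 are taken here as markers of monocytes and the cells derived from them. Itgam is not confined to these cells, since neutrophils also carry it. At 19 mo Csf1r, Adgre1, Cd163 and Mrc1 were higher than at 3 mo in both genotypes, whereas Itgam rose with age in V338Y mice and stood at about the same level in old as in young wild-type mice. The difference between these 2 age changes of Itgam did not pass the test (edgeR adjusted p = 0.388). Old and young mice also differed in sex-linked transcripts.

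Skeletal muscle holds resident macrophages between its fibers and around its vessels, where they clear debris and take up haemoglobin and iron. Monocytes enter from the blood along gradients of chemokines such as CCL2, and many of them become macrophages after injury. Growth factors acting on the receptor encoded by Csf1r keep both kinds of macrophage alive, and the transcription factor PU.1, encoded by Spi1, drives much of the myeloid gene program.

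RNA of whole quadriceps muscle was sequenced from 4 wild-type and 4 homozygous Mrps5 V338Y/V338Y mice at 3 mo of age and from 3 wild-type and 4 V338Y/V338Y mice at 19 mo, 1 library a mouse and no drug or other treatment in any group. All were on a C57BL/6 background, and the mutant carries a knock-in exchange of 1 amino acid in the mitochondrial ribosomal protein MrpS5 in every cell type, so that macrophages carry it as muscle fibers do. The depth was 8250653 to 18968132 counts a mouse. Levels are given in CPM, counts scaled to library sizes that were normalized by TMM, and a gene was called where the adjusted p from edgeR was under 0.05.

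The labels were checked on several genes. Mrps5 itself stood at 21.2 to 25.5 CPM in young wild-type and 24.0 to 27.5 CPM in young V338Y mice, and at most 19.3 and 18.3 CPM in the old mice of these genotypes, which does not test for the exchange. The muscle fiber genes Acta1, Ckm, Myh4, Ttn, Tnnt3 and Myh7 together held 154959 to 306967 CPM in each mouse. The study's methods call the young mice female, but Xist was at most 0.575 CPM and Ddx3y 163 CPM or more in all 8 mice at 3 mo, and Xist was 506 CPM or more and Ddx3y at most 0.0827 CPM in all 7 mice at 19 mo. Age and these sex-linked transcripts cannot be told apart in any comparison of old with young mice, whereas the genotypes were matched for them at each age. V338Y mouse 5 at 19 mo also stood apart, with 693 CPM summed over 13 neutrophil genes against 0.638 to 31.9 CPM in the other 14 mice.

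On the scale of CPM per kb of exon, which allows levels of different genes to be compared, Lyz2 was the most abundant of the 10 genes at a mean of 86.0 CPM per kb over the 15 mice. Mrc1 followed at 9.50, Csf1r at 7.47, Cd163 at 7.19, Lyve1 at 6.03, Adgre1 at 4.79, Cd68 at 3.17, Itgam at 2.44, Ccr2 at 1.71 and Cx3cr1 at 0.135 CPM per kb. Csf1r and Cd163 were not separable in this order, since Csf1r was the higher in 7 of 15 mice. Cd68 exceeded Itgam in 10, Cd163 exceeded Lyve1 in 11, and Lyve1 exceeded Adgre1 and Itgam exceeded Ccr2 in 12 of 15 mice. The other neighbours kept their order in all 15 mice. The 3 resident markers were thus each above the 3 monocyte markers in mean level per length. On GRCm38, Cd68 lies at chr11:69664213-69666153, Adgre1 at chr17:57358691-57483527, Lyz2 at chr10:117277331-117282321, Cd163 at chr6:124304656-124330527 and Mrc1 at chr2:14229392-14332057. Lyve1 at chr7:110850607-110863239 and Itgam at chr7:128062640-128118491 share a chromosome, as do Cx3cr1 at chr9:119901616-120069879 and Ccr2 at chr9:124101950-124113557. Counts cover the exons of each gene.

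The promoters of 3 genes that the results turn on are shown because Mrc1 and Cd163 stand for the resident markers and Itgam for the monocyte markers. Each is the 250 bases before the RefSeq transcription start on GRCm38.p6, all on the plus strand, with the hexamer GAGGAA, the core that PU.1 binds, or its reverse complement TTCCTC in capitals. Mrc1 is at chr2:14229164-14229413, Cd163 at chr6:124304401-124304650 and Itgam at chr7:128062390-128062639.
Mrc1: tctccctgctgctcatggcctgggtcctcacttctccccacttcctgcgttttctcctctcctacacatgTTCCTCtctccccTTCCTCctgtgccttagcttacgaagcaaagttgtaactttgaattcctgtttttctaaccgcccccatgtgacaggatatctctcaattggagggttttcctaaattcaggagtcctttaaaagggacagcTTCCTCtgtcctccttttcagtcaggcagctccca
Cd163: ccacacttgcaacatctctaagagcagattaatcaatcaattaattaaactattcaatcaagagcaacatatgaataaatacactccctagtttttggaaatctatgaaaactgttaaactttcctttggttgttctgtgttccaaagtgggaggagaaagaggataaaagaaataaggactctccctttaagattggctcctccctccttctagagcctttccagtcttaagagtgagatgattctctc
Itgam: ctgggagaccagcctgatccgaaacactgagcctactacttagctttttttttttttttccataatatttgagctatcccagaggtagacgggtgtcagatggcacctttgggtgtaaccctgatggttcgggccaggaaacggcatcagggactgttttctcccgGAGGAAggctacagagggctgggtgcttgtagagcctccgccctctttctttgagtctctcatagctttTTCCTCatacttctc
The Mrc1 window held 3 copies of the hexamer, all on the minus strand and at positions -180, -167 and -35 from the start site. Itgam held 2, at -84 on the plus strand and at -15 on the minus strand, and Cd163 held none. Searched on both strands, the hexamer was in 23.3% of 32851 mouse promoter windows of this length, so that 1 or more copies are common. Of the 7 marker genes with a promoter in the table, Cd68 held 1 copy, and Lyz2, Ccr2 and Cx3cr1 held none. The longer form GAGGAAGT, found in 2.44% of windows, and the TATA box TATAAA, in 12.4%, were in none of the 7, and the AP-1 motif TGANTCA, in 6.75%, was in Cd68 alone, with 2 copies. Csf1r, Adgre1 and Lyve1 were not in the promoter table.

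**Figure D1:**
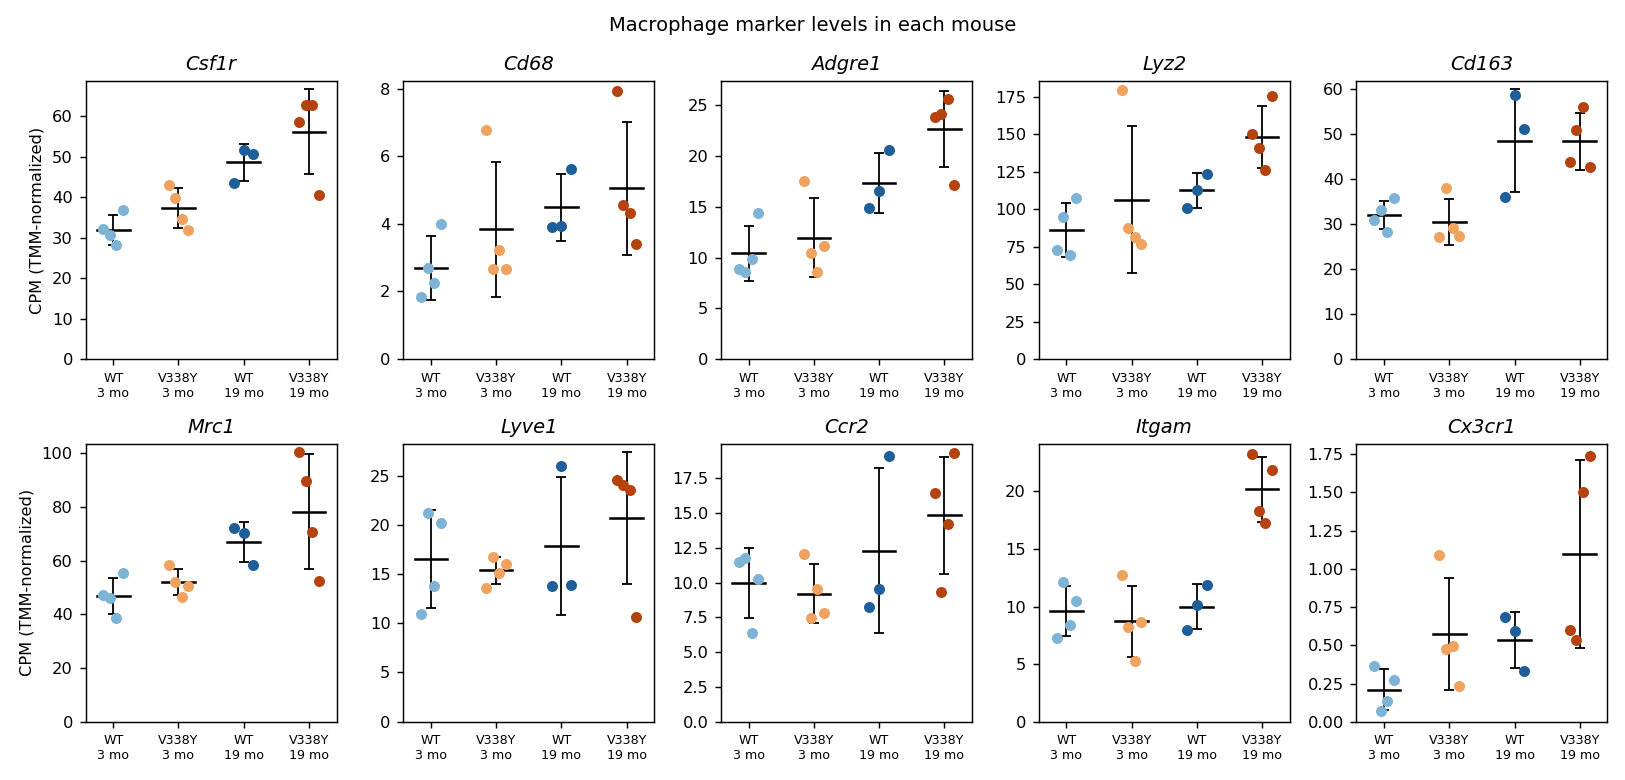
Level of each macrophage marker in CPM (vertical axis, from 0, with its own scale for each gene) in each of the 15 mice, by group; 1 point is 1 mouse, and the bar and whiskers are the mean ± SD of the group. Itgam in the 4 old V338Y mice, at 17.3 to 23.2 CPM, lies above every other mouse, and Csf1r, Adgre1, Cd163 and Mrc1 are higher in the old groups.

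The first comparison was of old with young wild-type mice. Of the 10 markers, 9 had enough counts to be tested, and 4 were called, all higher at 19 mo. They were the CSF1 receptor Csf1r, the F4/80 antigen Adgre1, the haemoglobin scavenger receptor Cd163 and the mannose receptor Mrc1. Among all 13657 genes tested 36.2% were called in this comparison, with 18.3% called higher and 17.8% lower. The median log2 fold change of the 9 markers was 0.52, beside 0.02 for all genes, and all 9 lay above 0, as did 51.4% of all genes. In whole tissue, more macrophages and more of these transcripts in each macrophage cannot be told apart.

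Csf1r stood at 32.01, 30.7, 28.1 and 36.7 CPM in the 4 young wild-type mice and at 43.4, 51.7 and 50.7 CPM in the 3 old ones. Each old mouse was above each young one, and the log2 fold change was 0.61 ± 0.11 (SE, edgeR adjusted p = 0.00345). Adgre1, an adhesion receptor of mature mouse macrophages, was at 8.85, 8.59, 9.88 and 14.4 CPM at 3 mo and at 14.9, 16.5 and 20.6 CPM at 19 mo. The young mouse with 14.4 CPM, mouse 4, came close to the lowest old mouse, but the groups did not overlap, and the change was 0.74 ± 0.19 (edgeR adjusted p = 0.0163).

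Cd163, which takes up complexes of haemoglobin and haptoglobin, was at 30.9, 33.2, 28.3 and 35.7 CPM in young and at 36.0, 58.6 and 51.0 CPM in old wild-type mice. The lowest old mouse was just above the highest young one, and the change was 0.60 ± 0.16 (edgeR adjusted p = 0.0172). Mrc1, which binds mannose-rich glycoproteins, was at 47.1, 46.0, 38.7 and 55.2 CPM at 3 mo and at 72.2, 70.2 and 58.3 CPM at 19 mo. Its groups did not overlap either, with a change of 0.52 ± 0.13 (edgeR adjusted p = 0.0126). Over all genes, 21.7% had old wild-type mice all above the young ones. Without old mouse 4 the adjusted p was 0.0798 for Cd163 and 0.0536 for Mrc1, which left 2 markers called, and without old mouse 5 it was 0.0544 for Adgre1.

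The monocyte markers did not pass the test in wild-type mice. Itgam, the integrin subunit CD11b, was at 7.30, 12.1, 8.43 and 10.5 CPM in young and at 7.96, 10.1 and 11.9 CPM in old mice. These ranges lay within each other, with a log2 fold change of 0.06 ± 0.20 (edgeR adjusted p = 0.848). Ccr2, the receptor by which monocytes answer CCL2, was at 11.5, 11.8, 6.37 and 10.2 CPM at 3 mo and at 8.27, 9.56 and 19.1 CPM at 19 mo. Only 1 old mouse, mouse 5, exceeded the young range, and the change was 0.30 ± 0.31 (edgeR adjusted p = 0.465). Cx3cr1, the fractalkine receptor, had 1 to 4 counts in each young and 4 to 11 counts in each old wild-type mouse, too few for a test.

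Of the remaining markers, the resident marker Lyve1, a hyaluronan receptor, was at 10.9 to 21.2 CPM in young and 13.7 to 25.9 CPM in old wild-type mice (0.11 ± 0.28, edgeR adjusted p = 0.774). Cd68, a protein of phagocyte lysosomes, was at 1.82 to 3.99 and 3.92 to 5.62 CPM (0.74 ± 0.27, edgeR adjusted p = 0.0585), and lysozyme Lyz2 at 69.5 to 108 and 101 to 124 CPM (0.39 ± 0.16, edgeR adjusted p = 0.0776). Both overlapped through young mouse 4. Without that mouse Cd68 (0.97, adjusted p = 0.0205) and Lyz2 (0.51, adjusted p = 0.0277) passed the test as well, which made 6 markers.

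In V338Y mice all 10 markers were tested with age and 6 were called, all higher at 19 mo, beside 46.9% of 13868 genes called of which 24.4% were higher and 22.5% lower as shares of all. Csf1r, Adgre1, Cd163 and Mrc1 were again among them, and Itgam and Ccr2 were the other two. The median log2 fold change of the 10 was 0.64, and that of all genes was 0.07. All 10 fold changes were above 0, as were 54.1% of all genes. Of the 10, Cx3cr1 passed the filter through the old mice alone (6 to 27 counts, 2 to 19 in young mice), which favoured this direction. The groups did not overlap for Itgam and Cd163, whereas 20.3% of all genes had old V338Y mice entirely above young ones.

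Itgam showed the largest change of the 6. It stood at 12.8, 8.20, 5.29 and 8.64 CPM in V338Y mice 1, 2, 3 and 4 at 3 mo and at 23.2, 18.3, 17.3 and 21.9 CPM in mice 2, 3, 4 and 5 at 19 mo. Each old mouse was thus above the highest young one, with a log2 fold change of 1.21 ± 0.23, or 2.31-fold (edgeR adjusted p = 0.00224). Leaving out each mouse in turn kept the change between 1.03 and 1.46, and every such fit called it.

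Ccr2 was at 12.1, 7.43, 9.51 and 7.84 CPM in young and at 16.4, 9.32, 14.3 and 19.4 CPM in old V338Y mice. One old mouse, mouse 3, lay within the young range. The log2 fold change was 0.69 ± 0.23 (edgeR adjusted p = 0.0333), and the call was lost when any 1 of old mice 2, 4 and 5 or of young mice 2, 3 and 4 was left out, with adjusted p of 0.0567 to 0.0884. Cx3cr1 had 2 to 19 counts in young and 6 to 27 counts in old V338Y mice (0.84 ± 0.53, edgeR adjusted p = 0.214).

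Among the general markers, Csf1r was at 42.9, 39.8, 34.6 and 31.9 CPM in young and at 58.5, 62.8, 62.6 and 40.6 CPM in old V338Y mice. Old mouse 5 fell below the highest young mouse and the other 3 were well above it (0.60 ± 0.15, edgeR adjusted p = 0.0107). Adgre1 was at 17.6, 10.5, 8.60 and 11.2 CPM at 3 mo and at 23.8, 24.2, 25.6 and 17.2 CPM at 19 mo (0.92 ± 0.21, edgeR adjusted p = 0.00661). Here the groups overlapped by the highest young mouse, mouse 1, and the lowest old one, mouse 5. Lyz2 was at 179, 87.2, 81.6 and 76.7 CPM in young and at 150, 140, 126 and 176 CPM in old V338Y mice. Young mouse 1 exceeded every old mouse, and the change was 0.49 ± 0.25 (edgeR adjusted p = 0.138). Without that mouse Lyz2 passed the test at 0.86 ± 0.13 (edgeR adjusted p = 0.00155), making 7 markers. Cd68 was at 2.65 to 6.78 and 3.41 to 7.91 CPM (0.36 ± 0.36, edgeR adjusted p = 0.426).

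The resident markers divided into Cd163 and Mrc1, which were called, and Lyve1, which was not. Cd163 was at 27.1, 37.9, 29.1 and 27.4 CPM in young and at 43.9, 51.0, 56.1 and 42.7 CPM in old V338Y mice, with no overlap (0.68 ± 0.14, edgeR adjusted p = 0.00332). Mrc1 was at 58.2, 52.1, 46.6 and 50.6 CPM at 3 mo and at 100.4, 89.7, 70.6 and 52.2 CPM at 19 mo, a wide spread among the old mice in which mouse 5 was within the young range (0.60 ± 0.18, edgeR adjusted p = 0.0219). Its call was lost when any 1 of old mice 2 and 3 or young mice 2, 3 and 4 was left out, with adjusted p of 0.0508 to 0.0639. Lyve1 was at 13.6, 16.8, 15.1 and 16.0 CPM at 3 mo and at 24.5, 24.1, 23.5 and 10.7 CPM at 19 mo. Old mice 2, 3 and 4 were close together above every young mouse and mouse 5 was below them all, so that the change was 0.44 ± 0.24 (edgeR adjusted p = 0.151). Without mouse 5 it was 0.67 ± 0.10 (edgeR adjusted p = 0.000784).

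**Figure D2:**
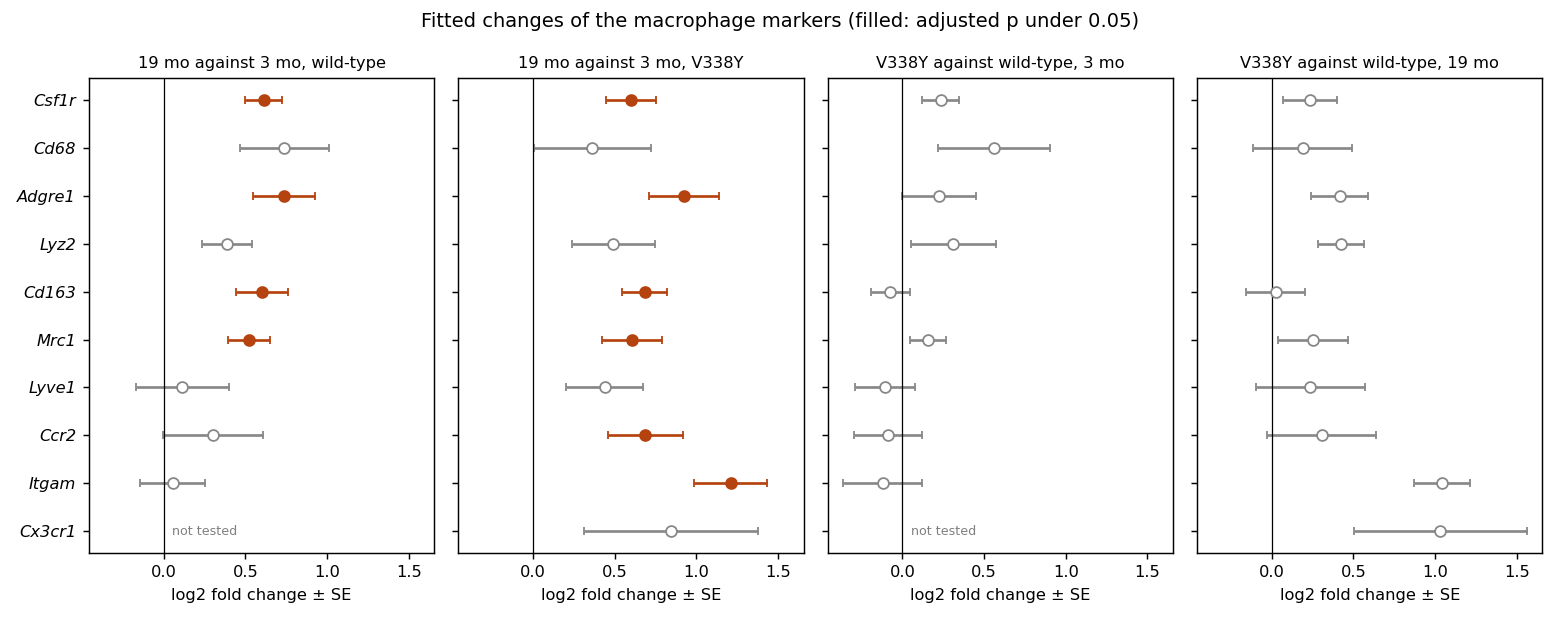
Log2 fold change ± SE (horizontal axis) of each macrophage marker in the 4 comparisons, from edgeR; filled points have an adjusted p under 0.05. With age 4 markers were called in wild-type and 6 in V338Y mice, all higher, beside 18.3% and 24.4% of all genes called higher. None was called by genotype without the mouse number as a block, beside 0.075% of all genes at 3 mo and 0.0434% at 19 mo. Itgam at 19 mo has the highest ratio of change to error in the genotype panels, 1.04 ± 0.17.

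Whether the age change depended on the genotype was tested by the interaction over all 15 mice. None of the 10 markers passed, and 0 of 14128 genes did, a share of 0%. At an unadjusted p under 0.05 there was 1 marker, Itgam, beside 9.63% of all genes. Its age change was 1.14 ± 0.33 greater in V338Y mice on the log2 scale (unadjusted p = 0.00360, edgeR adjusted p = 0.388), rank 127 of all genes by p. For Ccr2 the difference was 0.37 ± 0.42 (edgeR adjusted p = 0.802), and for the 4 markers called in both genotypes it ran from -0.02 for Csf1r to 0.17 for Adgre1. Thus the calls of Itgam and Ccr2 in V338Y mice alone do not show that their age changes differed between the genotypes.

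Between the genotypes at 3 mo, 0 of 9 markers tested were called by edgeR, and 0.075% of 13333 genes were. The count at an unadjusted p under 0.05 was also 0, beside 9.7% of all genes, and DESeq2 called 0 markers. The log2 fold changes of V338Y over wild-type ran from -0.12 ± 0.24 for Itgam to 0.56 ± 0.34 for Cd68, and the smallest adjusted p was 0.536 for Csf1r (0.24 ± 0.11). V338Y mouse 1 was the highest of the 8 young mice for Csf1r, Cd68, Adgre1, Lyz2, Mrc1, Ccr2, Itgam and Cx3cr1. Without it the changes of Cd68 and Lyz2 were 0.10 and -0.07, from 0.56 and 0.31 with it.

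At 19 mo all 10 markers were above 0 in log2 fold change of V338Y over wild-type mice, and 51.6% of all genes were. Of the 10, Cx3cr1 passed the filter through the V338Y mice alone (6 to 27 counts, 4 to 11 in wild-type mice), which favoured this direction. None of the markers passed the adjusted threshold of edgeR, where 0.0434% of 13833 genes did. At an unadjusted p under 0.05 there were 3, namely Itgam, Lyz2 and Adgre1, all higher in V338Y mice, beside 8.93% of all genes and 6.17% in that direction. The median log2 fold change was 0.28 for the markers and 0.01 for all genes.

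Itgam at 19 mo was 7.96 CPM in the lowest and 11.9 CPM in the highest wild-type mouse, and 17.3 CPM in the lowest and 23.2 CPM in the highest V338Y mouse. The mean was 10.0 ± 1.98 CPM (SD, n = 3) in wild-type and 20.2 ± 2.84 CPM (SD, n = 4) in V338Y mice, a log2 fold change of 1.04 ± 0.17 or 2.06-fold. Its unadjusted p of 0.000248 was the 15th smallest of the 13833, and its edgeR adjusted p was 0.229. Deviations from the group means across genes correlated at r of 0.14 to 0.34 in same-numbered old mice of the 2 genotypes, and at -0.31 to 0.36 in other pairs. No source says what a number shares. With the mouse number as a block, a fit in which V338Y mouse 3 has no partner, Itgam was called at 1.10 ± 0.17 (edgeR adjusted p = 0.0429), as were 0.795% of all genes. The same fit called 5 neutrophil genes higher in old V338Y mice, namely Ltf (7.04), Camp (8.26), Ngp (6.65), Mpo (10.6) and Cd177 (6.24). Each was at most 0.331 CPM in old wild-type mice and passed the filter through the V338Y mice alone, so that its direction was set by the filter. Neutrophils also carry Itgam, and their part in its call was not tested. DESeq2 called Itgam too at 1.03 ± 0.21 (adjusted p = 0.000444), and leaving out any 1 mouse kept the change between 0.90 and 1.19 with no call by edgeR. Without V338Y mouse 5, the mouse rich in neutrophil transcripts, it was 1.004 ± 0.19 (edgeR adjusted p = 0.230).

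Lyz2 was the second marker whose old groups did not overlap, at 101, 113 and 124 CPM in wild-type and 126 CPM or more in V338Y mice, while 4.51% of all genes had V338Y mice entirely higher. Its change was 0.42 ± 0.14 (edgeR adjusted p = 0.534), and 0.45 ± 0.13 with the block (edgeR adjusted p = 0.146). Adgre1 was 0.42 ± 0.17 higher (edgeR adjusted p = 0.550), with V338Y mouse 5 inside the wild-type range. Of the resident markers, Mrc1 was at 0.25 ± 0.21, Lyve1 at 0.24 ± 0.33 and Cd163 at 0.02 ± 0.18, and the values of Csf1r (0.23 ± 0.17), Cd68 (0.19 ± 0.30) and Ccr2 (0.31 ± 0.33) were of like size, all 6 with an adjusted p of 0.694 or more. Cx3cr1 was 1.03 ± 0.53 higher (edgeR adjusted p = 0.586) on 4 to 27 counts a mouse.

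The resident and the monocyte markers were also set against each other within each mouse, as the mean of log2(CPM + 0.5) of Cd163, Mrc1 and Lyve1 minus that of Ccr2, Itgam and Cx3cr1. This difference was 2.82 ± 0.17 in young wild-type (SD, n = 4), 2.73 ± 0.40 in young V338Y (n = 4), 2.93 ± 0.36 in old wild-type (n = 3) and 2.45 ± 0.64 in old V338Y mice (n = 4). The 4 groups overlapped. The lowest value of all, 1.56, was that of V338Y mouse 5 at 19 mo, and the next, 2.14, that of V338Y mouse 1 at 3 mo. Without mouse 5 the age difference in V338Y mice was 0.02, in place of a value of -0.28 with all mice, and the genotype difference at 19 mo was -0.18, in place of a value of -0.48. These 2 differences stayed below 0 with other pseudocounts and without Cx3cr1, which had 1 to 27 counts a mouse. The age difference in wild-type mice was 0.11, but -0.07 with a pseudocount of 0.1. The genotype difference at 3 mo was -0.09, but 0.14 without Cx3cr1.

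Itgam was also set against Csf1r within each mouse. The ratio of Itgam to Csf1r in CPM was 0.183, 0.196 and 0.235 in the old wild-type and 0.397, 0.291, 0.276 and 0.539 in the old V338Y mice, without overlap. In the young mice it was 0.228 to 0.395 in wild-type and 0.153 to 0.298 in V338Y mice, so that the ratio in old V338Y mice overlapped that of the young mice of both genotypes. The ratio of Mrc1 to Csf1r was 1.15 to 1.66 in old wild-type and 1.13 to 1.72 in old V338Y mice, with overlap.

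**Figure D3:**
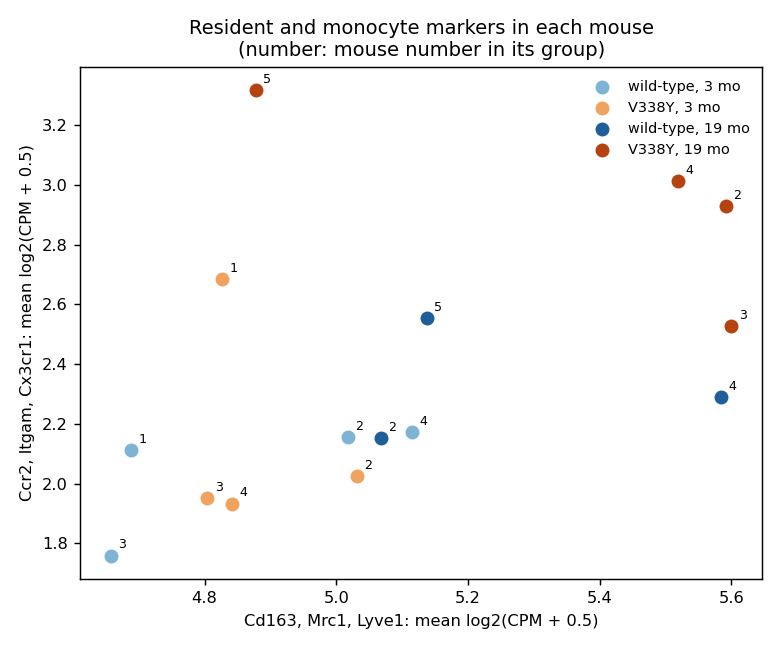
Mean log2(CPM + 0.5) of the resident markers Cd163, Mrc1 and Lyve1 (horizontal axis) against that of the monocyte markers Ccr2, Itgam and Cx3cr1 (vertical axis) in each of the 15 mice; numbers are the mouse numbers within a group. Old V338Y mice 2, 3 and 4 are high on the horizontal axis, as is old wild-type mouse 4, and old V338Y mouse 5 is highest on the vertical axis, at 3.32, with a resident mean of 4.88 in the range of the young mice.

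Genes that share a pathway with the markers were counted by list, and each count is to be read against the shares of all genes, of which 18.3% were called higher with wild-type ageing and 24.4% with V338Y ageing. Of 10 genes for the growth factors, growth factor receptors and transcription factors of the lineage, 2 were called higher with age in wild-type mice, Csf2rb (1.01 ± 0.24) and Maf (0.59 ± 0.14), and 4 in V338Y mice, Csf2rb (1.71 ± 0.28), Csf2ra (1.25 ± 0.21), Spi1 (1.41 ± 0.38) and Cebpa (1.47 ± 0.41). Csf2ra and Csf2rb encode the receptor for GM-CSF. Spi1 was low, at 0.414 to 1.78 CPM in young and 2.28 to 4.31 CPM in old V338Y mice, without overlap. Neither ligand of Csf1r was called with age when all mice were used, with 0.21 ± 0.18 and 0.31 ± 0.15 for Csf1 and 0.51 ± 0.20 and 0.60 ± 0.25 for Il34 in wild-type and V338Y mice. Without V338Y mouse 5 at 19 mo both ligands were called higher in V338Y mice, and 7 of the 10 genes of the list were, beside 47.1% of all genes called in either direction.

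Ligands and partners of the markers followed in part. Cx3cl1, the ligand of Cx3cr1, rose in both genotypes, from 0.365 to 0.816 CPM at 3 mo to 1.55 to 4.22 CPM at 19 mo in wild-type mice (2.56 ± 0.42, edgeR adjusted p = 0.00206) and from 0.461 to 0.862 to 2.68 to 5.66 CPM in V338Y mice (2.67 ± 0.32, edgeR adjusted p = 0.000269). In both genotypes Cx3cl1 passed the filter through the old mice alone, so that its direction was set by the filter. Ccl2, the ligand of Ccr2, had 1 to 3 counts in young and 8 to 12 counts in old wild-type mice, and passed the filter there through the old mice alone (2.21 ± 0.44), whereas in V338Y mice it had too few counts for the test. Itgb2, the beta subunit that pairs with the product of Itgam, was at 3.69 to 7.93 CPM in young and 8.11 to 18.1 CPM in old V338Y mice (1.11 ± 0.30, edgeR adjusted p = 0.0131), and changed by 0.25 ± 0.28 in wild-type mice (edgeR adjusted p = 0.506). At 19 mo Itgb2 in the V338Y mice lay above its 5.72 to 7.28 CPM in wild-type mice, at 0.89 ± 0.28 (edgeR adjusted p = 0.525). The signalling adapter Fcer1g rose with age in V338Y mice (1.01 ± 0.21), and haptoglobin Hp, whose complex with haemoglobin Cd163 takes up, fell in wild-type mice (-2.83 ± 0.26).

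Of 14 other resident macrophage genes 5 were called higher and 1 lower with age in wild-type mice (13 tested), and 8 higher and 1 lower in V338Y mice (14 tested). The chemokine Ccl8 (2.50 ± 0.44 in wild-type, 2.31 ± 0.41 in V338Y), the lectin Cd209f (0.84 ± 0.28 and 1.59 ± 0.41) and the growth factor Gas6 (0.46 ± 0.09 and 0.49 ± 0.13) rose in both. In wild-type mice Ccl8, at 0.456 to 1.36 CPM at 3 mo, passed the filter through the old mice alone, so that its direction there was set by the filter. Cbr2, a carbonyl reductase, was the gene that fell in both (-1.07 ± 0.25 and -1.05 ± 0.27). Without V338Y mouse 5 the count in V338Y mice was 12 higher and 1 lower of 14, with 47.1% of all genes called. In all mice the shares of all genes called were 36.2% in wild-type and 46.9% in V338Y mice. The list had a median log2 fold change of 0.65 in V338Y and 0.35 in wild-type mice.

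Other genes of blood monocytes gave 0 calls of 5 tested in wild-type mice by edgeR, 0 by DESeq2 and 0 at an unadjusted p under 0.05, where 47.2% of all genes were, and 4 of 7 in V338Y mice, all higher, out of 13 in the list. The 4 were Plac8 (2.15 ± 0.47), Ifitm6 (2.91 ± 0.90), Chil3 (5.56 ± 1.75) and Ms4a6c (0.63 ± 0.23). Chil3 and Ifitm6 reached 10 counts in 1 of the 4 young V338Y mice and were tested through the old mice alone, so that their direction was set by the filter. Chil3 was at 82.4 CPM in V338Y mouse 5 and at most 3.08 CPM in every other mouse. Without mouse 5 only Plac8 remained of 6 tested. The resident list gained calls and the monocyte list lost them when that mouse was left out.

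Among 14 further macrophage genes 3 were called higher in each genotype, C1qc and Mertk in both, Mpeg1 in wild-type and Laptm5 in V338Y mice, a share near that of all genes called higher. C1qc belongs to the first complement component and Mertk is a receptor for dying cells, which Gas6 bridges. Of 5 genes of MHC class II presentation, 1 was called in wild-type mice, H2-Aa (0.60 ± 0.19), and 3 in V338Y mice, Cd74 (1.03 ± 0.27), Ciita (1.10 ± 0.30) and H2-Aa (0.997 ± 0.32), all higher, and without V338Y mouse 5 all 5 were. Of the 14 further macrophage genes, 8 were called in V338Y mice without mouse 1 at 3 mo, and 6 without mouse 5 at 19 mo, beside 42.3% and 47.1% of all genes called.

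Genes of activated macrophages gave calls in both directions. Of 8 lipid-associated genes, Gpnmb (1.38 ± 0.28) and Lgals3 (0.95 ± 0.22) rose and Fabp5 (-0.90 ± 0.29) and Ctsd (-0.49 ± 0.11) fell in wild-type mice, and Ctsd was the 1 call in V338Y mice (-0.54 ± 0.14). Without V338Y mouse 1 at 3 mo Gpnmb and Lgals3 were called higher there too, which made 2 higher and 1 lower. The inflammatory list had 1 call in each genotype, Nos2 (1.30 ± 0.26 and 1.55 ± 0.36), of 2 and 3 genes tested. In the list of alternative activation Clec10a rose in both genotypes (0.52 ± 0.14 and 0.74 ± 0.19), Ccl24 rose (0.84 ± 0.29) and Arg1 fell (-3.86 ± 1.14) in wild-type mice, of 5 and 4 tested. Arg1, at most 0.222 CPM in old wild-type mice, passed the filter there through the young mice alone, so that its direction was set by the filter. Without V338Y mouse 5 there were 3 of 4 called in V338Y mice, namely Clec10a, Retnla and Mgl2.

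No gene of these 9 lists was called by edgeR for genotype at either age or for the interaction. At an unadjusted p under 0.05 there were 10 of 68 tested at 3 mo, 16 of 72 at 19 mo and 8 of 73 for the interaction, beside 9.7%, 8.93% and 9.63% of all genes, and DESeq2 called 0, 1 and 1. At 19 mo, 7 of 7 monocyte genes tested and 14 of 14 resident genes lay above 0, with median log2 fold changes of 0.68 and 0.47, and 4 and 2 of them had an unadjusted p under 0.05. Among them Chil3, Ifitm6 and Vsig4, each at most 0.667 CPM in old wild-type mice, passed the filter through the V338Y mice alone. This favoured changes above 0 for these genes. With the mouse number as a block 4 genes of the 9 lists were called higher in old V338Y mice. These were Cebpa (adjusted p = 0.0497), Hp (1.42 ± 0.23), Mpeg1 (0.77 ± 0.12) and Chil3 (7.15 ± 0.83). Chil3, which reached 82.4 CPM in V338Y mouse 5, was tested in this fit too through the V338Y mice alone. That fit also called the adipocyte gene Pparg (1.23 ± 0.20), and for the interaction it called Plin1 and Pparg. Cebpa, which adipocytes also use, was highest in V338Y mouse 4 at 19 mo, at 41.1 CPM, and next in wild-type mouse 1 at 3 mo, at 26.9 CPM, the mice with the highest sums of 6 adipocyte genes, 425 and 328 CPM, and the part of adipocytes in its calls was not tested. DESeq2 called Hp at 19 mo (1.23 ± 0.33, adjusted p = 0.0482) and Cebpa for the interaction (2.27 ± 0.57, adjusted p = 0.0486).

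**Figure D4:**
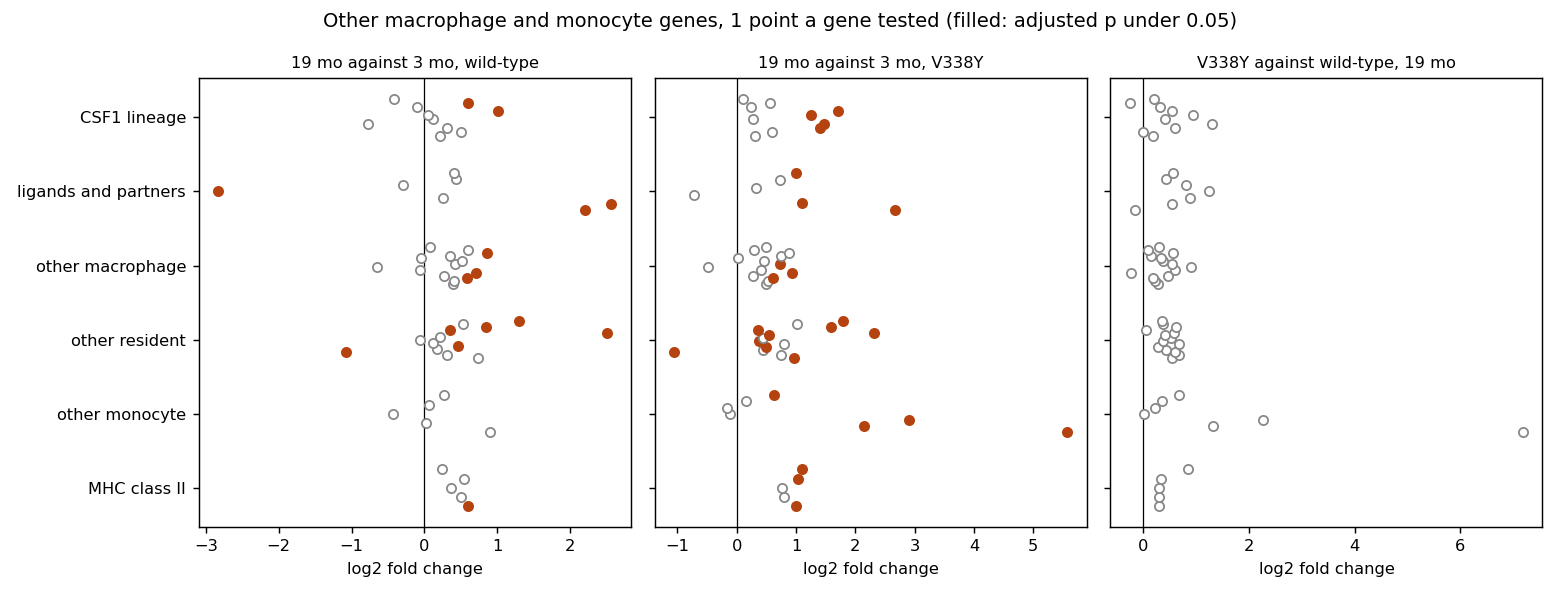
Log2 fold change (horizontal axis, with its own scale in each panel) of each tested gene of 6 lists of macrophage and monocyte genes, with age in wild-type mice, with age in V338Y mice and between the genotypes at 19 mo; filled points have an edgeR adjusted p under 0.05. In the V338Y panel 8 of 14 other resident and 4 of 7 other monocyte genes tested were called higher, beside 24.4% of all genes. Of the monocyte genes called, Chil3 and Ifitm6 were tested through the old mice alone. None is filled in the genotype panel, where 0.0434% of all genes were called.

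Several markers are also made by other cells, whose defining genes were therefore summed. Neutrophils carry Itgam and Lyz2 and also Itgb2. The 13 neutrophil genes summed to 0.638 to 3.62 CPM in young mice, to 4.30 to 8.02 CPM in old wild-type mice and to 6.11, 31.9, 9.54 and 693 CPM in old V338Y mice 2, 3, 4 and 5. Itgam in these 4 old V338Y mice was at 23.2, 18.3, 17.3 and 21.9 CPM in the same order. The part of neutrophils in these levels was not tested. With age in V338Y mice 10 of the 13 had enough counts for a test, and 3 without mouse 5, so that the filter set which of them were tested and their calls are not counted here.

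Lyve1 is shared with lymphatic endothelium. The summed lymphatic genes Prox1, Pdpn, Flt4, Mmrn1 and Reln stood at 21.1 to 33.2 CPM in young and 45.3 to 73.9 CPM in old mice, with Flt4, Mmrn1 and Reln called higher in both genotypes and Pdpn listed at 0 in every mouse. Flt4 changed by 1.35 ± 0.15 in V338Y and 1.24 ± 0.17 in wild-type mice, whereas Lyve1 did not pass the test in either. Blood endothelial genes summed to 152 to 197 CPM in young and 239 to 379 CPM in old mice, with 3 and 4 of 5 called higher. Dendritic cell genes, some of which macrophages also use, summed to 10.8 to 16.8 CPM at 3 mo and 16.9 to 26.4 CPM at 19 mo, with 1 called higher in each genotype, Cd209a.

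B and plasma cell genes summed to 0.662 to 2.29 CPM at 3 mo and 3.23 to 25.4 CPM at 19 mo. T and NK cell genes were below 5 CPM in sum in each mouse, and mast cell and eosinophil genes summed to at most 9.44 CPM in young and 18.03 CPM or more in old mice, with 3 called in each genotype. Fibroblast genes summed to 583 to 1120 CPM over all 15 mice, with Pdgfra called higher and Col1a1 lower in wild-type and Col1a1 lower in V338Y mice. Adipocyte genes gave 1 call lower in wild-type and 3 higher in V338Y mice, with sums of 69.4 to 121 CPM in old wild-type and 89.8 to 425 CPM in old V338Y mice. Red cell genes gave 2 calls lower with wild-type ageing and by edgeR 0 in the V338Y mice, where 1 had an unadjusted p under 0.05. The muscle fiber sum was 251063 to 306967 CPM in young, 220802 to 274928 in old wild-type and 154959 to 253955 in old V338Y mice. The part of these cell types in the marker changes was not tested.

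**Figure D5:**
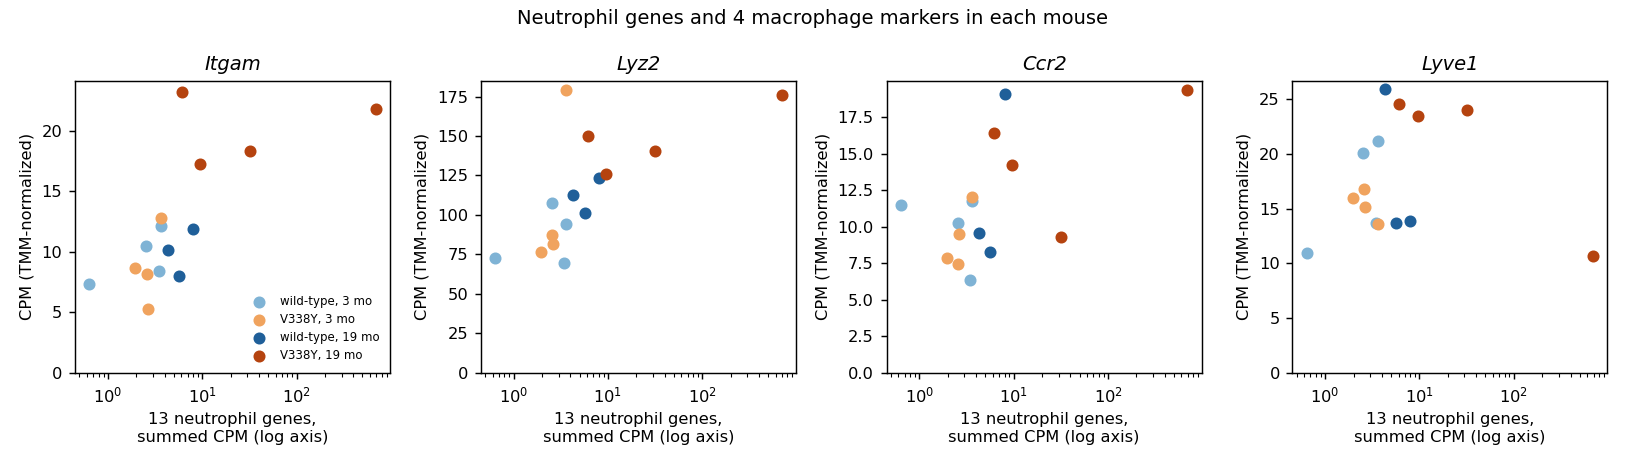
Summed CPM of 13 neutrophil genes (horizontal log axis) against the level in CPM of Itgam, Lyz2, Ccr2 and Lyve1 (vertical axes from 0) in each of the 15 mice. The 4 old V338Y mice have Itgam at 17.3 to 23.2 CPM and neutrophil sums of 6.11 to 693 CPM. The mouse at 693 CPM has the lowest Lyve1 of all, 10.7 CPM. The part of neutrophils in these levels was not tested.

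Across mice the markers also varied within the groups. After the group means were subtracted from log2(CPM + 0.5), Lyz2 and Itgam correlated at r = 0.79 over the 15 mice, Cd68 and Adgre1 at 0.77, Csf1r and Adgre1 at 0.72, and Mrc1 and Lyve1 at 0.62. Ccr2 shared little with Csf1r (0.01) and was opposite to Lyve1 (-0.32). These points share their libraries, and V338Y mouse 1 at 3 mo and mouse 5 at 19 mo lie far out on several markers.

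The genes most like 3 of the markers by the same measure were sought among 11594 genes with a mean of at least 2 CPM. They were Mgl2 (r = 0.95), Pcolce, Col6a3, Fap and Col5a1 (0.92) for Mrc1, of which Mgl2 is a macrophage lectin and the other four encode proteins of fibroblasts and their matrix. For Csf1r they were Slc27a3 (0.84), Capg, Panx1, Eln and Fcrls (0.82), and for Ccr2 they were Pik3cb (0.92), Pear1, Tmppe, Arhgap24 and Gab2 (0.90).

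The counts bear on a few of these genes with less certainty. Reads that fit several genes were shared out by the authors' estimate, so that the values of Lyz2, which resembles Lyz1, and of Ccr2 are uncertain to that degree.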

How the data were processed

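RNA of quadriceps muscle was sequenced single end with a stranded mRNA kit, although the methods also state ribosome depletion of total RNA, so that the selection of RNA is uncertain. The authors aligned the reads with STAR 2.4.2a, as the submitters' processing notes list, and deposited expected counts per gene, estimated with RSEM on Ensembl gene models and listed as whole numbers without normalization; how they were rounded is not given in the sources used here. The notes name GRCm38, the methods GRCm37; positions and exon lengths here come from GENCODE on GRCm38, promoters from RefSeq.

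Mice were grouped by their labels. A gene was tested where 50% or more of either group being compared reached 10 counts. Counts were normalized by TMM and compared with edgeR's quasi-likelihood test (edgeR 4.0.16, limma 3.58.1, R 4.3.3), with p-values adjusted by the Benjamini-Hochberg method over all genes tested and called under 0.05. Age was compared in each genotype, genotype at each age, and their interaction over 15 mice. Each group entered 2 of the pairwise comparisons, which therefore share mice. The code was tested on simulated data. A pseudocount of 0.5 was used for log2 values.

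The markers and all lists were chosen with earlier results of these data known. All 10 markers are given; from each other list the text names up to 4 genes with the smallest p for age in V338Y mice or genotype at 19 mo, and further genes that complete a small count were named after their values were seen. Of all pairs of files, 105 in number, 0 were identical. P-values measure the spread between mice, and mice of a group differed beyond sampling noise (chi-square over degrees of freedom 5.85 to 111).

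Mouse numbers recur between groups. At 19 mo the 3 same-numbered pairs of the genotypes deviated together from their group means (r of 0.14, 0.18 and 0.34), though no source says what a number shares, and other pairs ran from -0.31 to 0.36. The fit with the mouse number as a block is therefore given at 19 mo beside the main test, which did not use the number. Alternatives were RLE and upper-quartile normalization, DESeq2 1.42.0, no filter, edgeR's own filter, removal of the 10 genes with the most counts, the replicate block, 1 fit of all mice, an unadjusted p under 0.005 for age, and each mouse left out.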

Additional observations from a re-analysis of the deposited data

Results flagged for a closer look

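Of 30 sets of 4 mice, the 10 markers in each of 3 groups, tested for an outlying mouse by the size of its gap to the nearest other mouse, 3 held one, where chance gives about 1 set in 20. In young V338Y mice, mouse 1 was far above the other 3 for Cd68, at 6.78 CPM, a gap of 0.861 of the whole range, and for Lyz2, at 179 CPM, a gap of 0.897 of the range. In old V338Y mice, mouse 5 was far below the other 3 for Lyve1, at 10.7 CPM, a gap of 0.924 of the range. The old wild-type group, with 3 mice, was not tested in this way.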

How the results depend on the processing

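Calls of Csf1r with age in both genotypes and of Itgam, Adgre1 and Cd163 in V338Y mice held under every alternative run. With the replicate block, 2 markers and 2229 genes were called with age in wild-type mice, in place of 4 and 4940. In every comparison, that at 19 mo included, no source says what mice of the same number share. With age in wild-type mice the block gave -0.12 for Lyve1, -0.30 for Ccr2 and -0.33 for Itgam, in place of values above 0, and it took the call from Adgre1 and Cd163. In V338Y mice it added Cd68, Lyz2 and Lyve1 and dropped Ccr2 (adjusted p = 0.0550), which a fit of all 15 mice also dropped (0.0597). Of the genes of the 9 macrophage lists, 23 were called with age in wild-type and 29 in V338Y mice, and 12 and 47 with the block, while 18 in V338Y mice had an unadjusted p under 0.005. Beyond Itgam and the 4 list genes above, the block at 19 mo changed no call among the markers and the macrophage lists. At 19 mo DESeq2 and the block each called 1 marker in place of 0, and 62 and 110 genes in place of 6, and no filter gave 14. At 3 mo DESeq2 called 66 and no filter 33 genes in place of 10. For the interaction DESeq2 called 26, no filter 5 and the block 28 genes in place of 0. Cd163 at 19 mo was -0.0032 without a filter and -0.0040 in the fit of all mice, and the interaction of Csf1r was 0.0085 with upper-quartile normalization. The cause of these shifts was not tested.

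With 1 mouse left out, the markers called ran from 2 to 6 with age in wild-type and from 4 to 7 in V338Y mice, and genes called from 3 to 14 by genotype at 3 mo and from 2 to 7 at 19 mo. Log2 fold changes with age in wild-type mice ran from -0.27 to 0.27 for Lyve1, -0.16 to 0.52 for Ccr2 and -0.095 to 0.19 for Itgam. By genotype at 3 mo they ran from -0.044 to 0.41 for Adgre1, -0.067 to 0.44 for Lyz2, -0.25 to 0.043 for Lyve1, -0.26 to 0.0072 for Ccr2 and -0.39 to 0.063 for Itgam, and at 19 mo from -0.11 to 0.38 for Cd68 and -0.15 to 0.18 for Cd163. The interaction ran from -0.098 to 0.13 for Csf1r, -0.66 to 0.082 for Cd68, -0.036 to 0.48 for Lyz2, -0.10 to 0.23 for Cd163, -0.051 to 0.25 for Mrc1 and -0.96 to 0.0063 for Cx3cr1. Depth limits Cx3cr1 most.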
